A study of Gallus gallus with 2 samples.

Results

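Described here are 6 genes of melanosome transport, the movement of pigment granules inside pigment cells. They are *MLPH*, *RAB27A*, *MYO5A*, *RAB38*, *RAB32* and *SYTL2*, out of 12798 gene symbols in the deposited table of all loci. They were taken by exact gene name, leaving out loci whose estimate had failed. Each member matched 1 locus, so no choice between loci was needed. All 6 reached 1 FPKM (fragments mapped to a gene, scaled by the length of its exon model and by the size of the library, the authors' unit) in the higher library and none was lost to a filter on low values.

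As background, black color in skin depends on where pigment granules go as well as on how much pigment is made. Melanin is packed in melanosomes, which travel along microtubules to the edge of the melanocyte and are then held in the actin network there before they pass to keratinocytes. At the actin step the small GTPase RAB27A sits on the melanosome, melanophilin (the product of *MLPH*, also called Slac2-a) binds RAB27A, and melanophilin in turn binds the actin motor myosin Va (*MYO5A*). Loss of any of these 3 proteins leaves melanosomes clumped around the nucleus in mouse melanocytes, and in the chicken a change in *MLPH* underlies the diluted plumage color called lavender.

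RNA came from the left back skin of female Lueyang chickens aged 16 weeks, which carry no treatment and differ by the labelled skin color. The black skin library (BS) and the white skin library (WS) were each made from 3 birds whose RNA was pooled, out of 5 sampled per color, and each piece of skin was 8 mm in diameter. There was 1 library per color, so no difference below has a replicate check and no p value is given. The deposited tables hold no read counts, so the depth behind each FPKM value is unknown. Differences are log2((BS FPKM + 1)/(WS FPKM + 1)), which understates the change of genes near 0.

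As a check of the labels, melanocyte genes were read first. Of 18 marker symbols, 14 reached 1 FPKM in the higher library, and 8 of these were at least 2-fold higher in BS while 0 were lower to that degree. The larger pseudocount of 5, which weighs low genes less, left 4 higher, and the smaller one of 0.1 gave 9 higher and 1 (*TFAP2A*) lower. Over all 9545 gene symbols at 1 FPKM or more, the share past 2-fold was 2.77% toward higher values in BS and 2.30% toward lower values. The other 4 markers, *TYRP1*, *PMEL*, *MLANA* and *SLC45A2*, were listed at 0 in both libraries. They lie on chromosomes or contigs where every locus was listed at 0 (24 such sequences with 2269 loci), so their values say nothing about the transcripts. All members lie on other chromosomes.

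*MLPH* was the only member at least 2-fold apart (1 of 6 higher in BS and 0 of 6 lower, beside 2.77% and 2.30% of all symbols). At 1.5-fold, 2 members (*MLPH* and *RAB38*) were higher and 0 lower, beside 8.62% and 8.26% of all symbols. *MLPH* stood at 20.7 FPKM in BS versus 3.29 FPKM in WS, a ratio of 6.29 and a log2 difference of 2.34. Only 43 of the 9545 gene symbols had a larger difference in favor of BS, which put *MLPH* in place 44, or in place 68 with a pseudocount of 0.1. In level, *MLPH* stood at or above 62.8% of these symbols in BS and 14.4% of them in WS. In the deposited table *MLPH* is locus XLOC_018836 on chromosome 7 from 4759110 to 4778166, and no other locus shares this interval.

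The partners of melanophilin did not differ in that way. *RAB27A*, the GTPase that recruits melanophilin to the melanosome, was the most abundant member in both libraries, at 26.0 FPKM in BS versus 28.2 FPKM in WS (log2 difference -0.11). *MYO5A*, the motor, stood at 9.03 FPKM in BS versus 9.55 FPKM in WS (log2 difference -0.07). Both values were slightly lower in BS, but with the libraries scaled to equal totals without the 50 most abundant loci their log2 differences were 0.02 and 0.05, so no direction is read for them. The ratio of *RAB27A* to *MYO5A*, both per length of exon model, was 2.88 in BS and 2.95 in WS. The ratio of *MLPH* to *RAB27A* was 0.797 in BS against 0.117 in WS, and that of *MLPH* to *MYO5A* was 2.29 in BS against 0.345 in WS. The RNA of the adapter was thus above that of the motor in BS and below it in WS, while GTPase and motor kept nearly the same proportion.

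*RAB27A* and *MYO5A* are near each other on chromosome 10. *RAB27A* (XLOC_003531) was given the interval from 9083001 to 9151086, which it shares with *CCPG1* and *PIGB*, and *MYO5A* (XLOC_003537) the interval from 9918121 to 10212658, which it shares with 6 other loci. The gap between these intervals is 767 kb. Reads of loci that share an interval may have been split between them, so the values of *RAB27A* and *MYO5A* are less certain than that of *MLPH*. The paralog *MYO5C*, in the same interval as *MYO5A*, was at 0.0931 FPKM in BS versus 0.0294 FPKM in WS.

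**Figure D1:**
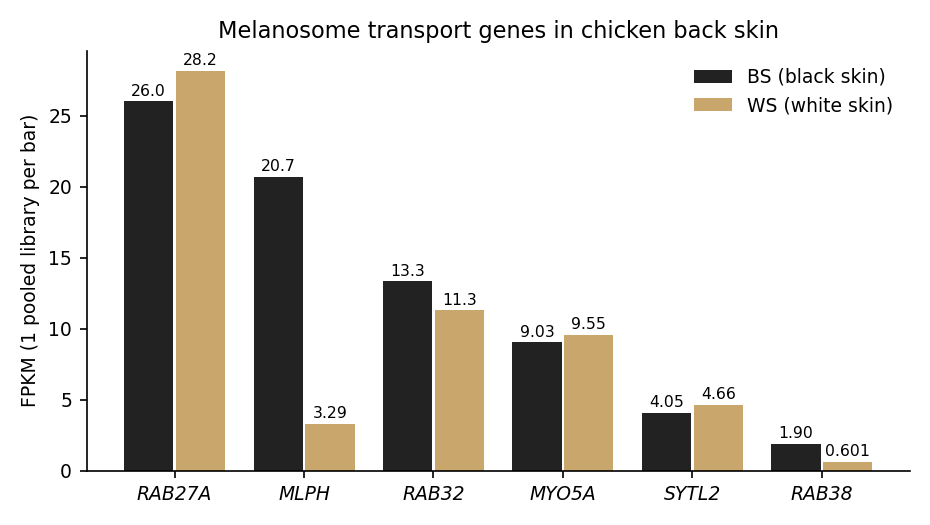
FPKM (vertical axis) of the 6 melanosome transport genes (horizontal axis, ordered by level in BS), with the BS library as the dark bar and the WS library as the light bar. Each bar is 1 pooled library, so there are no error bars. *MLPH* stands at 20.7 FPKM in BS versus 3.29 FPKM in WS, whereas *RAB27A*, *RAB32*, *MYO5A* and *SYTL2* have bars of similar height and *RAB38* is the lowest in both libraries.

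*SYTL2* encodes Slp2-a, another protein that binds RAB27A and, in mouse melanocytes, ties melanosomes to the cell membrane at the periphery. *SYTL2* stood at 4.05 FPKM in BS versus 4.66 FPKM in WS (log2 difference -0.16). It is locus XLOC_002363 on chromosome 1 from 194841519 to 194854196. The ratio of *MLPH* to *SYTL2* was 5.11 in BS and 0.707 in WS, so the order of these RAB27A-binding proteins by RNA level was not the same in the libraries.

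*RAB38* and *RAB32* are closely related GTPases that bring melanin-forming enzymes such as tyrosinase to the maturing melanosome, as shown in mouse cells. *RAB38* was the member with the lowest level, at 1.90 FPKM in BS versus 0.601 FPKM in WS. Its ratio was 3.16, but its log2 difference with the pseudocount was 0.86, short of 2-fold. With a pseudocount of 0.1 the log2 difference of *RAB38* was 1.51 and it counted as 2-fold higher. The number of reads behind values this close to 0 is unknown. *RAB32* stood at 13.3 FPKM in BS versus 11.3 FPKM in WS (log2 difference 0.22). Together they summed to 15.2 FPKM in BS versus 11.9 FPKM in WS, of which *RAB38* made up 12.5% in BS and 5.06% in WS. Most of the summed RNA was from *RAB32* in either library. *RAB38* is locus XLOC_001191 on chromosome 1 from 192566599 to 192589841 and *RAB32* is XLOC_013228 on chromosome 3 from 48750004 to 48772754.

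By level, the order in BS was *RAB27A*, *MLPH*, *RAB32*, *MYO5A*, *SYTL2* and *RAB38*. In WS it was *RAB27A*, *RAB32*, *MYO5A*, *SYTL2*, *MLPH* and *RAB38*. The other 5 members stood in the same order in both libraries, and *MLPH* was in place 2 in BS and place 5 in WS. Without replicates, it cannot be said which neighbors in these orders differ. By any margin 3 members were higher in BS and 3 were lower (5 and 1 under the scaling without the 50 most abundant loci), with a median log2 difference of 0.07 beside -0.04 over all 9545 symbols. For 4 members (*RAB27A*, *MYO5A*, *RAB32* and *SYTL2*) the difference was within 0.25 on the log2 scale, as it was for 50.2% of all symbols.

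**Figure D2:**
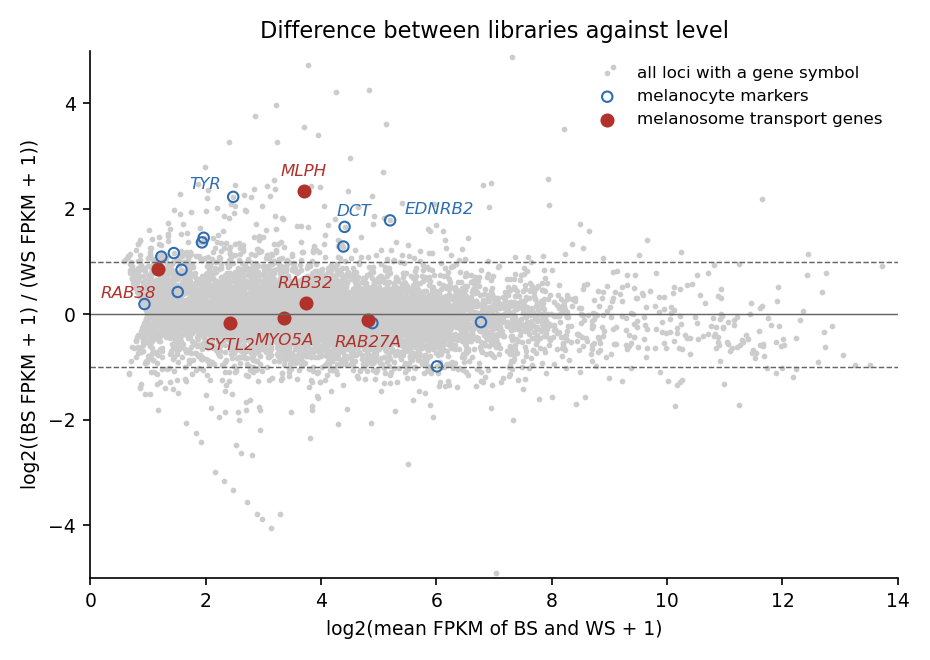
Log2 difference of BS over WS (vertical axis, pseudocount of 1) against log2 of the mean FPKM of the libraries plus 1 (horizontal axis) for loci with a gene symbol (gray), melanocyte markers (open blue circles) and the 6 members (red). Dashed lines mark 2-fold, and 32 gray points lie beyond the axes. *MLPH*, at a log2 difference of 2.34, lies above the upper line with *TYR*, *EDNRB2* and *DCT*, and the other members lie between the lines.

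Melanophilin is 1 of a family of proteins that bind RAB27, called Slp and Slac2 proteins. The genes of these and related RAB27-binding proteins were looked for, 11 in all. By exact symbol 8 were in the table, and 5 reached 1 FPKM in the higher library. Apart from *MLPH*, none of them was at least 2-fold higher in BS, beside 2.77% of all symbols. *SYTL4*, which encodes granuphilin, known from the secretory granules of endocrine cells, stood at 13.8 FPKM in BS versus 25.9 FPKM in WS (log2 difference -0.86). *RPH3A*, rabphilin of secretory vesicles, stood at 3.49 FPKM in BS versus 7.64 FPKM in WS (log2 difference -0.95). Both were lower in BS but short of 2-fold, except that *RPH3A* passed it with a pseudocount of 0.1. *UNC13D*, which encodes the Munc13-4 protein of cytotoxic and other granules, was at 4.59 FPKM in BS versus 5.08 FPKM in WS. *MYRIP* (Slac2-c), which links RAB27A to myosin VIIa in the retina, and *SYTL3* stayed under 1 FPKM in both libraries.

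The summed FPKM of these effector genes was nearly equal, at 48.1 in BS and 47.5 in WS, while its makeup differed. *MLPH* made up 43.0% of the sum in BS and 6.94% in WS, and *SYTL4* made up 28.7% in BS and 54.5% in WS. The most abundant RAB27 effector was therefore *MLPH* in BS and *SYTL4* in WS. FPKM is per length of exon model, so these genes can be set beside each other, although *EXPH5*, *SYTL1* and *RPH3AL* were not found by symbol and are not in the sum.

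**Figure D3:**
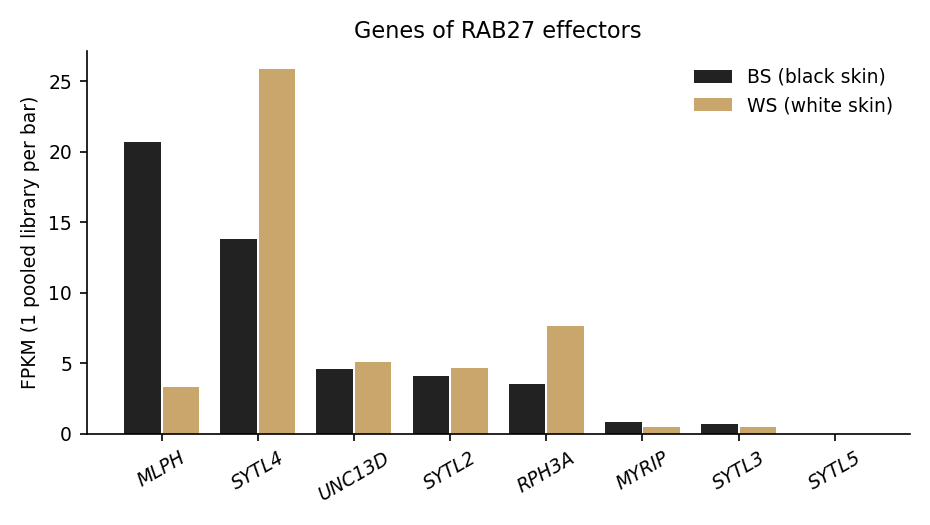
FPKM (vertical axis) of the 8 RAB27 effector genes found in the table (horizontal axis, ordered by level in BS), with BS as the dark bar and WS as the light bar (1 pooled library each). *MLPH* is the tallest bar in BS at 20.7 FPKM, and *SYTL4* is the tallest in WS at 25.9 FPKM.

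The machinery around the members was counted next, from 6 lists of transport genes. They name 136 genes, of which 102 were in the table by exact symbol. Without the members, 81 distinct genes of these lists reached 1 FPKM in the higher library. None of them was at least 2-fold higher in BS, beside 2.77% of all 9545 symbols. Of the rest, 2 passed 2-fold in the other direction, beside 2.30% of all symbols, and 79 did not. At 2-fold, counts this small do not set these genes apart from other symbols. The median log2 difference was -0.09, a distance from 0 that other scalings of the libraries (up to 0.13 on the log2 scale) can turn round. At 1.5-fold, 2 were higher and 8 lower, beside 8.62% and 8.26% of all symbols. These shares also stand beside the counts given below for each list, family, marker set and window.

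Among regulators of RAB27, all 9 measured genes including *RAB27A* were within 2-fold, with a median of -0.10. *GDI2*, which extracts Rab proteins from membranes, was the most abundant at 223 FPKM in BS versus 260.5 FPKM in WS, in an interval shared with 9 other loci. *TBC1D10A*, a GTPase-activating protein for RAB27A, stood at 49.1 FPKM in BS versus 59.8 FPKM in WS. *MADD*, an exchange factor that activates Rab3 and Rab27 proteins, was at 6.94 FPKM in BS versus 6.89 FPKM in WS.

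Of 19 measured genes around *RAB32* and *RAB38*, none was 2-fold apart in either direction (median -0.04). *HPS1* and *HPS4* together form BLOC-3, the exchange factor that activates both GTPases. *HPS4* stood at 11.1 FPKM in BS versus 21.7 FPKM in WS (log2 difference -0.91), and *HPS1* at 15.3 FPKM in BS versus 18.3 FPKM in WS (log2 difference -0.24). *HPS5*, a subunit of BLOC-2, which acts in the delivery of cargo to melanosomes, was at 126 FPKM in BS versus 76.6 FPKM in WS (log2 difference 0.71). *AP3M1*, a subunit of the adaptor AP-3, which sorts cargo to melanosomes, was at 38.9 FPKM in BS versus 40.1 FPKM in WS. *ANKRD27*, the effector also called Varp, was at 4.84 FPKM in BS versus 5.04 FPKM in WS. *AP3B1*, *AP3S1*, *STX3* and *BLOC1S3* were listed at 0, all on sequences with every locus at 0.

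On the actin side, 1 of 13 measured genes was 2-fold apart. *SPIRE2*, an actin nucleator that works with myosin Va, stood at 21.5 FPKM in BS versus 44.6 FPKM in WS (log2 difference -1.02), and its relative *SPIRE1* at 6.54 FPKM in BS versus 7.33 FPKM in WS. *SPIRE2* was only just past 2-fold, and under each of 3 other scalings of the libraries it was within 2-fold. *MREG*, melanoregulin, which in mice modifies the color of animals that lack myosin Va, was at 4.87 FPKM in BS versus 5.34 FPKM in WS. The most abundant genes of the list, *CDC42* (192 FPKM in BS versus 167 FPKM in WS) and the light chain gene *DYNLL2* (145 FPKM in BS versus 166 FPKM in WS), were within 0.25 on the log2 scale.

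Microtubule motors, which carry melanosomes over long distances, gave no gene 2-fold apart among 24 measured, with a median of 0.03. The most abundant were *RAB1A*, a GTPase that acts with kinesin on melanosomes, at 215 FPKM in BS versus 153 FPKM in WS, and *CAPZB*, a capping protein subunit of dynactin, at 152 FPKM in BS versus 142 FPKM in WS. *KIF5B*, the heavy chain of conventional kinesin, stood at 36.6 FPKM in BS versus 36.0 FPKM in WS. *DYNC1H1*, the dynein heavy chain, stood at 60.8 FPKM in BS versus 65.6 FPKM in WS. The largest difference in favor of BS in this list was that of *DYNLT1*, a dynein light chain, with 28.3 FPKM in BS versus 17.3 FPKM in WS (log2 difference 0.68). Outbound and inbound motors both differed far less than *MLPH*.

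For the passage of melanosomes to keratinocytes, 1 of 17 measured genes was 2-fold apart and it was lower in BS. *FGFR2*, the receptor of keratinocyte growth factor, stood at 44.0 FPKM in BS versus 89.6 FPKM in WS (log2 difference -1.01), and it too was within 2-fold under the 3 other scalings. *RAB11A* and *RAB11B*, GTPases of melanosome release, stood at 101 and 159.9 FPKM in BS, versus 88.4 and 185 FPKM in WS. *VAMP3*, a membrane fusion protein, was the most abundant of the list, at 397 FPKM in BS versus 436 FPKM in WS, followed by the GTPase gene *RAC1*, at 225 FPKM in BS versus 265 FPKM in WS.

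Over the whole family of Rab GTPases, 42 genes reached 1 FPKM in the higher library, none was at least 2-fold higher in BS and 1 was at least 2-fold lower, with a median of -0.05. *RAB38* had the largest difference of the family in favor of BS (0.86), followed by *RAB1A* and *RAB4A* (0.49 each). *RAB42* had the largest in favor of WS, at 25.9 FPKM in BS versus 61.5 FPKM in WS (log2 difference -1.22), in an interval shared with 1 other locus. *RAB7L1*, an older symbol of *RAB29* and a relative of *RAB32* and *RAB38*, stood at 27.7 FPKM in BS versus 25.4 FPKM in WS.

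**Figure D4:**
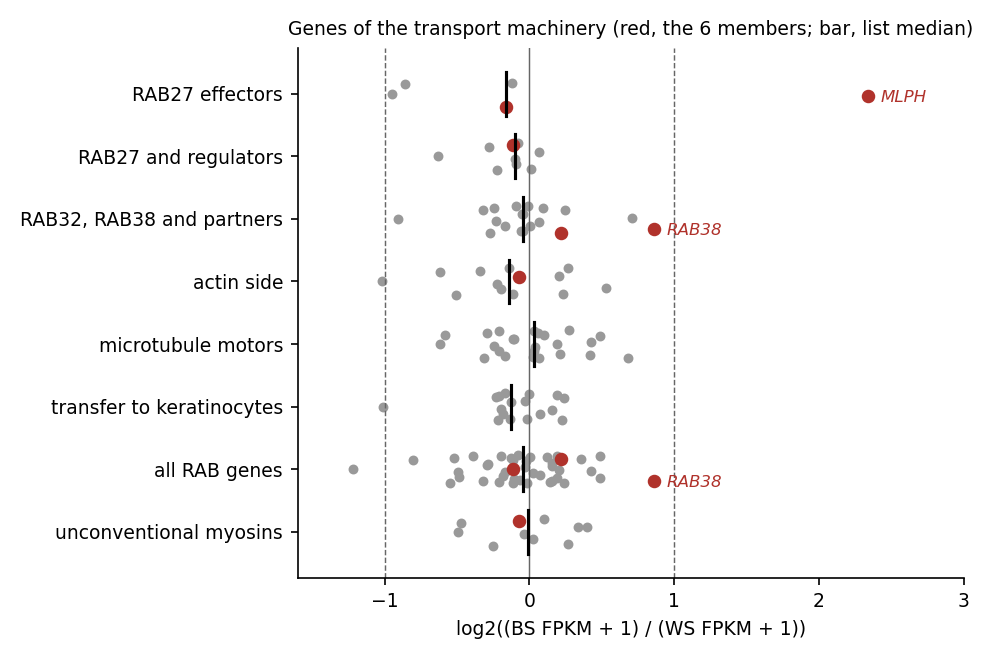
Log2 difference of BS over WS (horizontal axis, pseudocount of 1) for each measured gene of the transport lists, the RAB family and the unconventional myosins, 1 row per list, with points spread vertically for sight only. Red points are the 6 members, black bars are list medians and dashed lines mark 2-fold. *MLPH* stands at 2.34, apart from all other points, and the medians lie between -0.16 and 0.03.

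Most measured pigment cell genes, 11 of 14, were higher in BS together with *MLPH*. The median log2 difference of the 14 measured melanocyte markers was 1.13, and their summed FPKM was 316 in BS and 273 in WS. *GPNMB*, *MITF* and *TFAP2A* were the 3 markers not higher in BS, with log2 differences of -0.15, -0.17 and -0.99. They are also used by other cells, but so are some markers that were higher, such as *SOX10*. No marker had a larger log2 difference than *MLPH*, and without a pseudocount only the ratio of tyrosinase (*TYR*, 8.53) was above that of *MLPH* (6.29). *EDNRB2*, the endothelin receptor of avian melanocytes, had a ratio of 3.60 and *DCT*, an enzyme of melanin synthesis, a ratio of 3.39. The other 5 markers at least 2-fold higher also had smaller log2 differences than *MLPH*. *SOX10*, a transcription factor of neural crest cells that Schwann cells also use, stood at 28.7 FPKM in BS versus 11.2 FPKM in WS (log2 difference 1.29). The melanosome membrane genes *OCA2* and *GPR143* had log2 differences of 1.45 and 1.16, the channel gene *TRPM1*, in an interval shared with 2 other loci, 1.36, and the transcription factor gene *PAX3* 1.09. The ratio of *MLPH* to the marker was higher in BS for 13 of 14 markers, for example 0.663 in BS against 0.357 in WS for *DCT* and 0.371 against 0.212 for *EDNRB2*. For *TYR* it was lower, 2.53 in BS against 3.44 in WS. This count follows from only *TYR* having a larger ratio of BS to WS than *MLPH*, so it is not a separate result about *MLPH*. This set of ratios was chosen after the values had been seen.

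The ratio of *RAB27A* to the same markers mostly went the other way. It was lower in BS for 11 of 14, for example 0.832 in BS against 3.06 in WS for *DCT*, and was higher for *TFAP2A*, *MITF* and *GPNMB*. As *RAB27A* was nearly equal in the libraries, this split repeats that of the markers, 11 of which were higher in BS and 3 lower. It is not a separate result about *RAB27A*. In bulk skin, fewer melanocytes and less RNA of a gene in each melanocyte cannot be told apart. *RAB27A*, *MYO5A* and *SYTL2* are also used outside pigment cells, in immune granules, nerve and epithelia.

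Markers of other cells differed as well. Among 15 measured markers of keratinocytes, the cells that receive melanosomes, 8 passed 2-fold toward lower values in BS and all 15 were lower by some margin, with a median of -1.02 and a summed FPKM of 2841 in BS and 5529 in WS. Under the scaling without the 50 most abundant loci 2 passed 2-fold, 14 were lower and the median was -0.88. *KRT5* and *KRT75* were listed at 0, as were *TNNC2* and *GZMA* of the lists below. Each lies on a sequence with every locus at 0, so these values say nothing about the transcripts. *FGFR2* and *SPIRE2*, at -1.01 and -1.02, had differences close to that median. Of 8 Schwann cell and nerve markers, 2 (*MBP* and *NGFR*) were at least 2-fold higher in BS, with a median of 0.60 and a summed FPKM of 406 in BS and 256 in WS. Of 10 skeletal muscle markers, 2 were at least 2-fold higher, with a median of 0.82 and sums of 24829.9 in BS and 14422.5 in WS (*TNNC2* listed at 0). That count was 4 under the scaling without the 50 most abundant loci, 3 under each of the other scalings and 1 with a pseudocount of 5. Of 10 immune markers, 1 (*LYZ*) was at least 2-fold higher, with a median of 0.29 and sums of 2246 in BS and 1863 in WS (*GZMA* listed at 0). The 6 thrombocyte markers had a median of -0.40 and sums of 91.9 in BS and 148 in WS, and 1 (*GP1BA*) was at least 2-fold lower in BS. Endothelial markers had a median of 0.17 and sums of 236 in BS and 195 in WS, with none 2-fold apart. Fibroblast markers had a median of -0.01, with 3 higher and 3 lower by any margin. Their sums were 4441 in BS and 8434 in WS, and 1 of 6 (*COL1A2*, log2 difference -1.19) was at least 2-fold lower. The part of these cells in the values of the 6 members was not tested.

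The nearest genes on the chromosome were read next. *RAB17*, a Rab gene 2.21 kb away, was at 2.04 FPKM in BS versus 1.58 FPKM in WS (log2 difference 0.24). On the other side *COL6A3*, a collagen VI chain 12.6 kb away, was at 376 FPKM in BS versus 345 FPKM in WS (log2 difference 0.12). *LRRFIP1* and *COPS8*, the next genes out, had log2 differences of 0.01 and 0.26. Within 1 Mb on each side, 17 symbols reached 1 FPKM, 3 of them at least 2-fold higher in BS and 1 lower, with a median of 0.01. None of the 4 direct neighbors was among these.

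Around *RAB38* a direct neighbor was at least 2-fold higher in BS. *CTSC*, the protease cathepsin C and its direct neighbor at 14.9 kb, stood at 69.4 FPKM in BS versus 34.0 FPKM in WS (log2 difference 1.01). *TYR* lies 378 kb away on the same chromosome. These were the 2 of 16 measured symbols within 1 Mb that were at least 2-fold higher, much like the 3 of 17 around *MLPH*. On the other side of *RAB38*, *TMEM135* and *FZD4* had log2 differences of -0.05 and 0.24. *MGLUR5B*, next to *CTSC*, was under 1 FPKM in both libraries. *CTSC* was only just past 2-fold, and with a pseudocount of 5 its log2 difference was 0.93.

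The direct neighbors of *RAB32*, *SYTL2*, *RAB27A* and *MYO5A* held 1 gene 2-fold apart. *ONECUT1*, next to *MYO5A*, was listed at 0 in BS and stood at 8.01 FPKM in WS. *EPM2A*, the glycogen phosphatase laforin, 38.1 kb from *RAB32*, was at 8.80 FPKM in BS versus 4.22 FPKM in WS (log2 difference 0.91). The other neighbors lay closer to 0. Beside *RAB27A*, the log2 differences were -0.19 for *DYX1C1*, 0.22 for *PYGO1*, 0.32 for *RSL24D1* and 0.18 for *UNC13C*. Beside *MYO5A* they were 0.01 for *LEO1* and 0.15 for *TMOD3*, with *GGA.15630* listed at 0 in both libraries. Beside *RAB32*, *STXBP5* had 0.18, while *C6ORF103* was under 1 FPKM in both libraries. Beside *SYTL2*, *TMEM126A* had 0.37 and *PICALM* -0.14, while *CCDC89* and *CCDC83* were under 1 FPKM in both libraries.

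**Figure D5:**
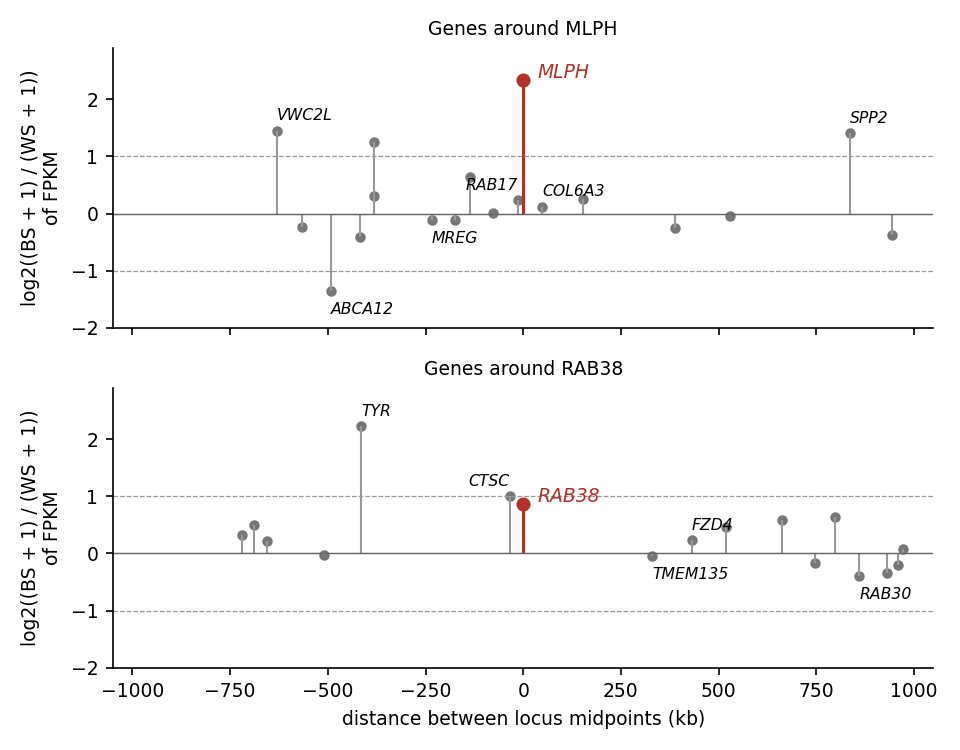
Log2 difference of BS over WS (vertical axis, pseudocount of 1) of measured genes within 1 Mb of *MLPH* (upper panel) and *RAB38* (lower panel), against the distance between locus midpoints in kb (horizontal axis). Dashed lines mark 2-fold. *MLPH* (2.34) stands above its direct neighbors *RAB17* (0.24) and *COL6A3* (0.12), whereas *RAB38* (0.86) has *CTSC* (1.01) beside it and *TYR* (2.23) farther along.

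With 2 libraries, likeness to *MLPH* means only a similar ratio at a similar level. Among the 7859 symbols that reached 5 FPKM in either library, the 5 nearest to *MLPH* in log2 difference and log2 mean level were *EDN3*, *ALB*, *FKBP12.6*, *CYP1B1* and *NES*. *EDN3*, the ligand endothelin 3, was the closest, at 23.0 FPKM in BS versus 3.44 FPKM in WS (log2 difference 2.43, distance 0.16). *ALB*, serum albumin, stood at 25.7 FPKM in BS versus 3.98 FPKM in WS (distance 0.29). *FKBP12.6* stood at 25.7 FPKM in BS versus 5.47 FPKM in WS, and *CYP1B1*, a cytochrome P450 enzyme, at 14.5 FPKM in BS versus 1.98 FPKM in WS. *NES*, the intermediate filament nestin, stood at 14.6 FPKM in BS versus 1.67 FPKM in WS. The distances of these 3 were 0.46, 0.49 and 0.55.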

How the data were processed

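The study sequenced 1 library per skin color. The authors deposited FPKM for 22853 assembled loci, and the processing notes name Cuffdiff and galGal4, while the study's methods name Bowtie and another reference file. Versions are not given in the sources used here. Deposited coordinates reach 200985987 on chromosome 1, farther than galGal4 does, so the build is unsettled and coordinates are printed as deposited. The smaller table held the same FPKM for all its 18608 loci. The deposited columns of fold changes, p values and q values are the authors' own comparison and were not used.

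Loci with a failed estimate (5) were dropped, and 1 locus per symbol was kept, that with the highest mean. Genes were counted at 1 FPKM or more in the higher library and at least 2-fold, with a pseudocount of 1. A single locus held 30.7% of the summed FPKM in BS and 54.7% in WS, so 3 other scalings were tried, along with pseudocounts of 0.1 and 5, other filters, sums over loci and a 1.5-fold limit. The effect of scalings and pseudocounts on the marker lists and *CTSC* was added after seeing the data. Loci with several merged names were not split.

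The members and lists were chosen with earlier results of these data known. Named were all members, list genes 2-fold apart or among the 2 most abundant, 2 neighbors on each side, the 5 genes nearest to *MLPH* in pattern and melanocyte markers 2-fold apart or at 0. Some results under this rule are not reported here. Other genes were named for their role after their values had been seen. Of 237 list and marker symbols, 226 are symbols of GRCg7b (RefSeq), as are all 6 members. No sequences were used. The calling of fold differences was tested on simulated data, only for symbols at a mean of 5 FPKM or more, with large changes and little noise. That test says nothing about differences between birds or about members at lower levels, *RAB38* and *SYTL2*. Python 3.11.15, pandas 2.3.3, numpy 2.4.6 and matplotlib 3.10.9 were used.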

Additional observations from a re-analysis of the deposited data

How the results depend on the processing

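With no replicates, a value was taken as unmoved when it stayed on its side of 2-fold and within 1.5-fold of itself. By this measure *RAB27A*, *MYO5A*, *RAB32* and *SYTL2* did not move under any alternative tried, and *MLPH* was at least 2-fold higher in BS under all of them. *RAB27A* and *MYO5A* lay so near 0 that they crossed it when totals were equalised without the 50 most abundant loci. The log2 difference of *MLPH* was 1.63 with a pseudocount of 5. That of *RAB38* was 1.51 with a pseudocount of 0.1, which made 2 members at least 2-fold higher, since a smaller pseudocount weighs low values more. At 1.5-fold, 2 members were higher as well. Of the other transport genes 2 were higher and 8 lower at 1.5-fold, beside 8.62% and 8.26% of all symbols. With a pseudocount of 5, and with the libraries scaled to a median log2 ratio of 0, to equal upper quartiles or to equal totals without the 50 most abundant loci, 0 other transport genes were at least 2-fold lower in place of 2. These scalings add 0.08, 0.07 and 0.13 to BS on the log2 scale. The depth behind each value is unknown.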

Other observations

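Unconventional myosins other than class V also act on melanosomes. Of 10 measured genes of this family, *MYO5A* among them, none was 2-fold apart, with a median log2 difference of -0.01. *MYO1C* and *MYO18A* were the most abundant, at 86.7 and 82.6 FPKM in BS versus 85.1 and 84.9 FPKM in WS. *MYO7A*, which moves melanosomes in the retinal pigment epithelium, was at 1.11 FPKM in BS versus 0.759 FPKM in WS.

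Loci with several merged names, which were not counted, held the transport genes *LRRK1*, *RILP*, *ACTR10* and *EXOC6*, whose loci differed by at most 0.12 on the log2 scale.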
